A study of Mus musculus with 7 samples.

Results

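The 31 genes described here encode proteins of homologous recombination and of the Fanconi anaemia pathway, and they were chosen by symbol from a list. All 31 were found among the 53801 genes of the deposited sheets, and all 31 were among the 20800 genes tested for a difference between adult and embryonic mouse brain. RNA sequencing covered cortical tissue, labelled cortical plate, of C57BL/6J mice: 3 adult libraries at 10.5 months and 4 libraries at embryonic day 14.5 (E14.5). The adult libraries came from females that carried the CamK II-Cre transgene. Adult replicates 1 and 3 were Atr fl/+, with 1 floxed Atr allele, and adult replicate 2 was Atr +/+. The E14.5 libraries were all Nbs1 fl/+; Nestin-Cre tg, with males in replicates 1 and 4 and females in replicates 2 and 3. CamK II-Cre is used to recombine floxed alleles in forebrain excitatory neurons, and Nestin-Cre does so in neural progenitors and their descendants. Where a library had a floxed allele, the other cells of its tissue therefore keep that allele. No library was free of a Cre transgene, and age cannot be told apart from the Cre driver, the floxed gene or the library kit. The labels' plug and isolation dates lie 12 days apart for the E14.5 libraries. The labels do not say that each library came from a separate animal, and the spread behind each p-value may therefore be partly technical.

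Homologous recombination repairs a broken DNA end by copying an intact sister strand, and it is therefore used mainly by cells that have replicated their DNA. Ends are first resected, BRCA1 with its partners brings in BRCA2, an intact template is invaded and copied, and nucleases and helicases finally take the joined molecules apart. The Fanconi anaemia pathway repairs crosslinks between the strands at stalled replication forks: a core complex tags the FANCD2-FANCI pair with ubiquitin, which brings in nucleases and then the recombination proteins. The embryonic cortex holds dividing progenitors, and patients with Fanconi anaemia are often born with small heads, while most neurons of the adult cortex no longer divide.

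The adult libraries held 27327927 to 29996018 counts and the E14.5 libraries 32533065 to 43197226. Levels are given as CPM, counts divided by a library size that TMM factors adjust, and a call is an adjusted p under 0.05 in edgeR's quasi-likelihood test over all genes tested. The 10 dividing-cell markers, among them Mki67 and Top2a, summed to 8.74 to 10.6 CPM in adult libraries and 1405 to 1670 CPM at E14.5, and all 10 were lower in adults. Of these, Ccnb1, Aurkb and Bub1 met the filter on low counts in no adult library and entered the test through their E14.5 counts. The 6 progenitor markers summed to 54.5 to 63.2 CPM in adult libraries and 1162 to 1327 CPM at E14.5. The 7 cortical neuron markers summed to 5490 to 5691 CPM in adults and 1478 to 1668 CPM at E14.5, with 4 of the 7 higher in adults and 3 lower. All 5 oligodendrocyte, 5 astrocyte and 5 microglia markers were higher in adults. Of these, S100b, Mag and Mobp met the filter on low counts in no E14.5 library and entered the test through their adult counts. The 4 erythroid markers summed to 3.05 to 3.86 CPM in adults, where Hba-x was at 0 in every library, and to 177 to 330 CPM at E14.5. The 4 endothelial markers summed to 139 to 160 CPM in adults and 96.2 to 130 CPM at E14.5, but only Flt1 was higher in adults (88.0 ± 7.68 CPM in adults and 20.5 ± 1.37 CPM at E14.5, SD, n = 3 and 4), while Cldn5 and Pecam1 were lower, Tek did not pass and the list's median log2 fold change was −0.29. The 4 choroid plexus markers ranged from 26.9 to 474 CPM in adults, with adult replicate 3 the highest, and from 195 to 729 CPM at E14.5; 1 of them was higher in adults and 2 were lower. In bulk tissue, fewer cells of a type and less RNA per cell cannot be told apart, and the part of cell composition in the results below was not tested.

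Promoter sequences from RefSeq (build GRCm38.p6) are shown for 6 genes on which the results turn. Eme1, Brca1 and Rad54l, among the most reduced in adults, start back to back with a neighbour that fell far less or not at all. Brip1 and Bard1 were also strongly reduced, and Rad52 did not pass the test. Each window runs 5′ to 3′ along the gene's own strand, from 250 bases before the RefSeq start to 50 bases after it. Capitals mark 3 kinds of motif searched on both strands: E2F sites (TTTGGCGC, TTTCCCGC, TTTCGCGC or TTTGCCGC), the cell cycle homology region or CHR (TTTGAA or TTCGAA), and the CCAAT box. E2F factors act on S-phase genes, the CHR is bound by complexes that repress cell cycle genes in resting cells, and the CCAAT box is bound by NF-Y, all as textbook background.
Eme1: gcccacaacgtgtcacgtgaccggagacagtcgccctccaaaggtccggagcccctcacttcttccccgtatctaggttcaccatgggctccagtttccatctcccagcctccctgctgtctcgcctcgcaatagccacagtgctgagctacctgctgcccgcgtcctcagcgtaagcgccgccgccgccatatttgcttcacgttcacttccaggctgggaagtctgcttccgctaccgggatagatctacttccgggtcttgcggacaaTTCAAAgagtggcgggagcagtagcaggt
Brca1: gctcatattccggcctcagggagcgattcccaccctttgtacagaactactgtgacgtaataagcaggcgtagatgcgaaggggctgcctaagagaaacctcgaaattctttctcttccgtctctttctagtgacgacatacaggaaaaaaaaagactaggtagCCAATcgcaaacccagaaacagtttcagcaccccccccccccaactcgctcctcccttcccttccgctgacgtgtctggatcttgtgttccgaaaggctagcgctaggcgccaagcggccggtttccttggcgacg
Rad54l: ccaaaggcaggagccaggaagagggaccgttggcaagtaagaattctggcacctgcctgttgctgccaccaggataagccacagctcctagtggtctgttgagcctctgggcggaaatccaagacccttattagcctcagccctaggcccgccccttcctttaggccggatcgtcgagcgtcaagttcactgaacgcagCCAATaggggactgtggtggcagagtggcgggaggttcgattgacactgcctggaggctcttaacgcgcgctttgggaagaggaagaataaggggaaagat
Brip1: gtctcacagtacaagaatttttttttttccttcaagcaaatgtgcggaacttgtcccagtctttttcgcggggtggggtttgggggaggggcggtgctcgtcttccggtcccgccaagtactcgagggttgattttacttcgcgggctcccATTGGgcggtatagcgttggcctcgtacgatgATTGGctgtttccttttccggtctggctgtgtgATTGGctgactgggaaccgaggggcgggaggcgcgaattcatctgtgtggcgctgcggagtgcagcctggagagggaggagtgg
Bard1: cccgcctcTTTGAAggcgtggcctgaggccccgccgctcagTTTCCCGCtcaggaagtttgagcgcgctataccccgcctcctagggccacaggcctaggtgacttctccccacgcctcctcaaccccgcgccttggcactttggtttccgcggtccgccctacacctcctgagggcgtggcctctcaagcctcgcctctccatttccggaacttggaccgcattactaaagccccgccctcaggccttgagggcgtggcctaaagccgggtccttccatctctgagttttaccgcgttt
Rad52: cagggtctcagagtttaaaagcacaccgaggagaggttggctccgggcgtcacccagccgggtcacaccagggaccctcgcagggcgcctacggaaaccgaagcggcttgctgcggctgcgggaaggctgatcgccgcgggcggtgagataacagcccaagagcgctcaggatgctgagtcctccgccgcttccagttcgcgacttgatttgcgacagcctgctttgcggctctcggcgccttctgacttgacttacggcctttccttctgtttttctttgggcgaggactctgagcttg
The windows are Eme1 chr11:94653694-94653993 (minus strand), Brca1 chr11:101551906-101552205 (minus strand), Rad54l chr4:116123640-116123939 (minus strand), Brip1 chr11:86201144-86201443 (minus strand), Bard1 chr1:71102923-71103222 (minus strand) and Rad52 chr6:119902448-119902747 (plus strand). Eme1 has 1 CHR, 21 bases after the start and on the opposite strand. Brca1 has 1 CCAAT box 86 bases before its start, and Rad54l has 1 at 51 bases. Brip1 has 3 CCAAT boxes, all on the opposite strand, at 99, 67 and 34 bases before the start. Bard1 has both a CHR, 242 bases before the start, and an E2F site at 209 bases. None of the motifs searched occurs in the Rad52 window.

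Windows were at hand for 26 of the 31 genes, in 29 windows, and not for Exo1, Fancd2, Rad51d, Rad54b and Xrcc2. An E2F motif was present in 4 of the 26 genes (Bard1, Brca2, Fancg and Rad51c), or 15.4%, beside 2.26% of the 32851 windows of that length in the table and 4.29% of tested genes with a window. A CHR was present in 4 of 26 (Bard1, Eme1, Gen1 and Rad51b), or 15.4%, beside 19.2% of all windows and 16.7% of tested genes with a window. A CCAAT box was present in 15 of 26, or 57.7%, beside 37.4% of all windows and 42.2% of tested genes with a window. Fancc and Slx4, both among those 15 and on the minus strand, have windows inside their GENCODE M21 genes. The Fancc window ends at base 63431995 and its gene at 63497278, and the Slx4 window ends at 4001928 and its gene at 4003770. Such windows may not hold the start in use. No motif overlapped a motif of another kind. The 4 genes with a CHR had log2 fold changes, adult over E14.5, from −7.67 to −3.31 with a median of −4.38, while the 22 without one had a median of −2.02 and ranged from −5.58 to 0.27. The 4 genes with an E2F motif had a median of −2.02, beside −2.54 for the 22 without one, and the 15 with a CCAAT box a median of −2.41, beside −2.27 for the 11 without one. With so few genes, these values are a description without a test, and a match of letters is not a bound site. The member windows had a median GC content of 59.7%, beside 52.7% for all windows, and a median of 23 CpG pairs, beside 7. These medians were not computed for tested genes alone, so the gap cannot be called particular to these genes.

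Of the 31 genes, 28 were lower in adults, 2 were higher (Rad51d, and Fancc, whose sign turned with total-count scaling) and Rad52 did not pass the test (edgeR quasi-likelihood test, Benjamini-Hochberg adjustment over 20800 genes). Calls were common between these ages: 44.7% of all genes tested were lower in adults and 41.7% higher. Of all calls, 48.3% were therefore higher in adults, or 37.1% with total-count scaling, where the median over all genes was −0.49 and that of the 31 genes −2.78. The median log2 fold change was −2.37 over the 31 genes and −0.08 over all genes tested. Beyond 2-fold, 22 of the 31 were lower in adults by glmTreat, beside 22.7% of all genes. All adult libraries lay below all E14.5 libraries for 28 of the 31, beside 44.0% of all genes. They lay above them for Rad51d and Fancc, and the share of all genes in that direction was not counted. The filter on low counts was met by 28 genes in all adult libraries, while Eme1, Brip1 and Rad51b met it in no adult library and entered the test through their E14.5 counts. Exons on the opposite strand overlap 15 of the 31 genes, covering 10% or more of Fancc, Fanci, Rad54l, Fancf, Fancl, Eme1 and Fanca, and without a known strand setting the values of these 15 are less certain. Of the 16 without such overlap, 14 were lower in adults and 1 was higher. Together the 31 genes summed to 201 to 213 CPM in adult libraries, against 572 to 644 CPM at E14.5, so that adults kept 34.3% of the summed level. Adults kept 0.624% of the summed dividing-cell markers. The ratio of the summed genes to the summed markers was 20.2 to 23.1 in adult libraries and 0.386 to 0.410 at E14.5.

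The size of the reduction differed widely within the pathway. Adults kept under 10% of the E14.5 level of 10 genes (Eme1, Exo1, Brip1, Brca1, Rad54l, Fanci, Bard1, Rad51b, Fanca and Dna2). They kept 10% to 50% of 12 others, from Gen1 to Fancf, and over 50% of 9 (Mus81, Fance, Slx4, Fancg, Fancl, Fancm, Rad52, Fancc and Rad51d).

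**Figure D1:**
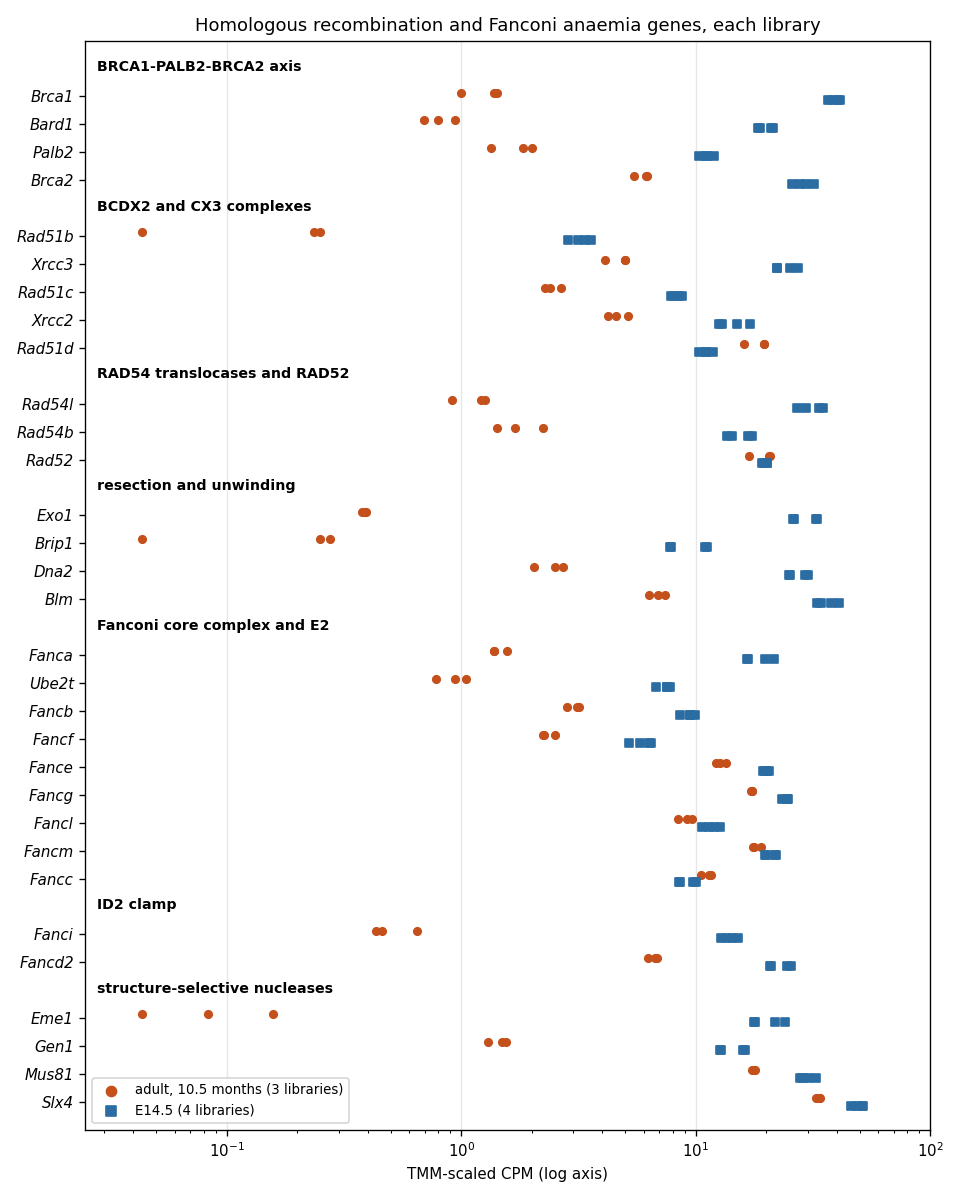
TMM-scaled CPM (log axis) of the 31 genes by role, with 1 point for each of the 3 adult libraries (circles) and each of the 4 E14.5 libraries (squares). Adult and E14.5 libraries are apart for every gene but Rad52, with adults higher for Rad51d and, except with total-count scaling, Fancc.

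**Figure D2:**
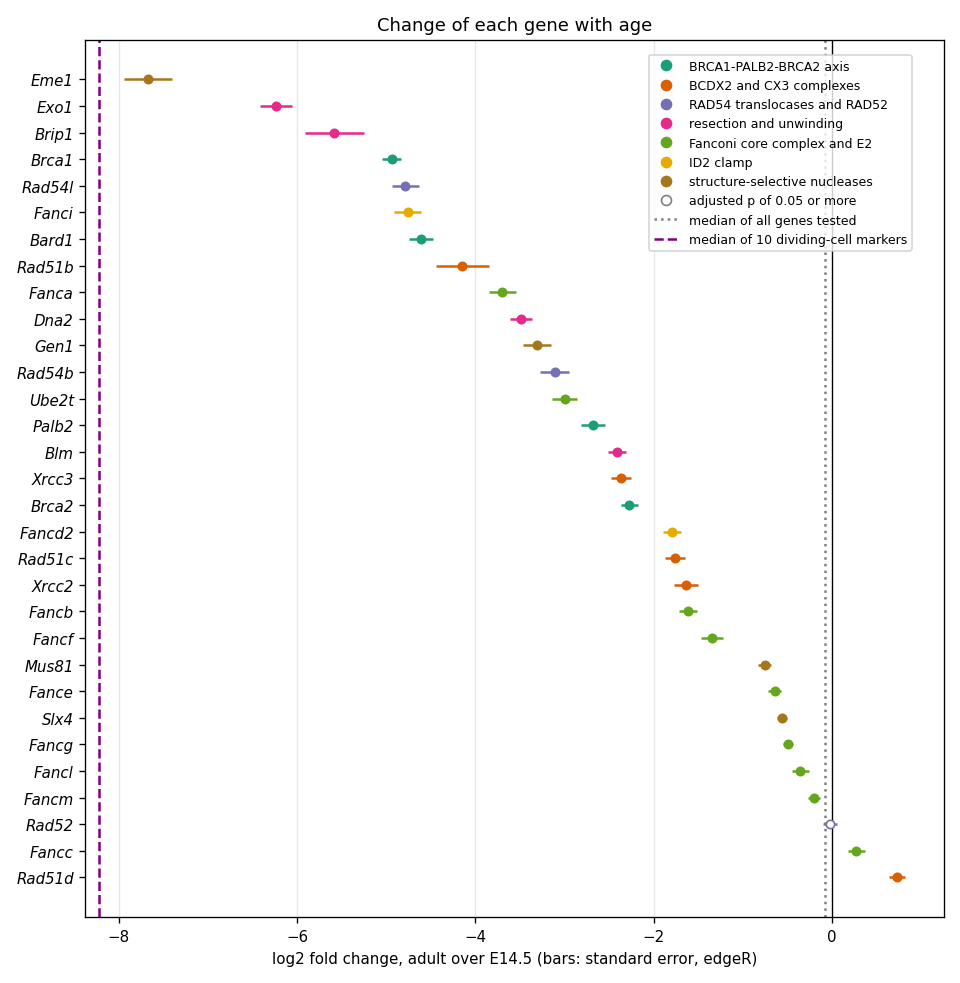
Log2 fold change, adult over E14.5, of each gene with its standard error from edgeR, coloured by role. Values run from −7.67 for Eme1 to 0.73 for Rad51d, the dotted line marks the median of all genes tested (−0.08) and the dashed line the median of the 10 dividing-cell markers (−8.23).

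All 4 genes of resection and unwinding were lower in adults, each beyond 2-fold, with a median log2 fold change of −4.54. Exo1 (chr1:175880581-175913489, plus strand, GRCm38) encodes the exonuclease of long-range resection. It had 0.393, 0.390 and 0.376 CPM in the adult libraries and 26.03, 33.0, 26.3 and 32.6 CPM at E14.5. Adult counts were 10, 9 and 9, close to each other, and far below every E14.5 library (log2 fold change −6.24, SE 0.178, edgeR quasi-likelihood adjusted p = 6.9e-11). Blm, the Bloom syndrome helicase that acts both in resection and in dissolving joined molecules, was the least reduced of the 4. Its level was 6.92, 7.38 and 6.31 CPM in adults and 34.2, 37.8, 32.8 and 41.0 CPM at E14.5 (log2 fold change −2.41, SE 0.101, edgeR adjusted p = 1.5e-09). Its ages did not overlap. Dna2, the nuclease and helicase that resects alongside BLM, averaged 2.43 ± 0.342 CPM in adults and 27.3 ± 2.65 CPM at E14.5 (SD, n = 3 and 4, log2 fold change −3.49). Brip1, the BRCA1-binding helicase FANCJ, had 7, 1 and 6 counts in adults and 348, 411, 298 and 531 at E14.5 (log2 fold change −5.58, SE 0.331, edgeR adjusted p = 2.9e-08). The adult sum of 14 counts corresponds to 0.193 CPM with an exact 95% Poisson interval of 0.106 to 0.325, which covers counting error only.

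The BRCA1-PALB2-BRCA2 axis was lower in adults in all 4 genes, again each beyond 2-fold, with a median of −3.64. Brca1, which directs repair towards recombination, had 1.38, 0.998 and 1.42 CPM in adults and 38.1, 40.3, 36.8 and 41.2 CPM at E14.5. Bard1, its partner in the ubiquitin ligase, had 0.944, 0.694 and 0.794 CPM in adults and 18.9, 21.4, 18.4 and 21.04 CPM at E14.5. Both genes were lowest in adult replicate 2, and neither came near any E14.5 library. Brca1 changed by −4.94 on the log2 scale (SE 0.110, edgeR adjusted p = 1.3e-11) and Bard1 by −4.61 (SE 0.133, edgeR adjusted p = 7.5e-11). Palb2, the bridge from BRCA1 to BRCA2, had 2.01, 1.34 and 1.84 CPM in adults and 10.4, 11.1, 11.2 and 12.0 CPM at E14.5 (log2 fold change −2.68, SE 0.137, edgeR adjusted p = 8.2e-09). Brca2, which PALB2 brings to the break, had 6.21, 6.16 and 5.48 CPM in adults and 27.9, 31.9, 25.9 and 29.5 CPM at E14.5 (log2 fold change −2.27, SE 0.0962, edgeR adjusted p = 1.7e-09). The order of the 4 reductions was therefore Brca1, Bard1, Palb2 and Brca2, and adults kept 3.24% of the Brca1 level but 20.7% of the Brca2 level.

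The genes of the BCDX2 and CX3 complexes, which act in recombination downstream of resection, did not move together. The products of Rad51b, Rad51c, Rad51d and Xrcc2 form the BCDX2 complex, and those of Rad51c and Xrcc3 the CX3 complex. Rad51b was the most reduced, with 0.236, 0.0434 and 0.251 CPM in adults and 2.87, 3.57, 3.15 and 3.39 CPM at E14.5 (log2 fold change −4.15, SE 0.297, edgeR adjusted p = 1.6e-07). Its adult counts were 6, 1 and 6, and their sum corresponds to a level within 0.0956 to 0.307 CPM (exact 95% Poisson interval of the sum, for counting error only). Rad51c, the subunit that both complexes share, had 2.28, 2.39 and 2.68 CPM in adults and 7.83, 8.46, 8.09 and 8.78 CPM at E14.5 (log2 fold change −1.76, SE 0.111, edgeR adjusted p = 5.3e-08). Xrcc2 had 4.21, 4.55 and 5.14 CPM in adults and 12.6, 17.1, 12.9 and 14.9 CPM at E14.5 (log2 fold change −1.63, SE 0.134, edgeR adjusted p = 5.0e-07). Xrcc3 averaged 4.69 ± 0.517 CPM in adults and 24.3 ± 2.47 CPM at E14.5 (SD, n = 3 and 4, log2 fold change −2.37). Rad51d (chr11:82876434-82890614, minus strand, GRCm38) went the other way: it had 19.5, 19.5 and 16.1 CPM in adults and 10.4, 11.1, 11.9 and 11.1 CPM at E14.5. Every adult library was above every E14.5 library, and the adult mean was 165% of that at E14.5 (log2 fold change 0.73, SE 0.0896, edgeR adjusted p = 1.6e-05). The change of Rad51d did not exceed 2-fold by glmTreat, and it kept its direction and its call in all 20 other settings tried, from 0.27 to 0.81.

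Among the RAD54 translocases, which move along DNA and remodel it, Rad54l had 1.26, 0.911 and 1.21 CPM in adults and 29.5, 33.6, 27.0 and 34.9 CPM at E14.5 (log2 fold change −4.78, SE 0.150, edgeR adjusted p = 1.4e-10). Rad54b had 2.24, 1.69 and 1.42 CPM in adults and 14.2, 17.4, 13.6 and 16.7 CPM at E14.5 (log2 fold change −3.11, SE 0.162, edgeR adjusted p = 9.6e-09). Both were reduced beyond 2-fold, with adult libraries far below those of E14.5. Rad54b shares 2070 bases on the same strand with the gene Fsbp, so the split of reads between those genes, and with it the Rad54b value, is uncertain. Rad52, which anneals single strands, had 20.6, 20.7 and 16.9 CPM in adults and 19.2, 19.5, 20.1 and 20.2 CPM at E14.5. Adult replicates 1 and 2 lay above all E14.5 libraries and adult replicate 3 below them, so the ages overlapped (log2 fold change −0.03, SE 0.0805, edgeR adjusted p = 0.77). Its sign and its call depended on the scaling: the value was 0.0265 with RLE scaling, and with total counts the gene was called lower in adults (−0.44, edgeR adjusted p = 0.00031). Without adult replicate 3 the value was 0.07.

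The 2 genes of the FANCD2-FANCI clamp, the target of the Fanconi core complex, were lower to unequal degrees. Fanci had 0.433, 0.651 and 0.460 CPM in adults and 13.5, 14.2, 12.8 and 15.1 CPM at E14.5 (log2 fold change −4.76, SE 0.154, edgeR adjusted p = 1.8e-10). Fancd2 had 6.69, 6.85 and 6.23 CPM in adults and 20.9, 24.6, 20.8 and 25.4 CPM at E14.5 (log2 fold change −1.80, SE 0.102, edgeR adjusted p = 2.1e-08). Neither gene overlapped between the ages, and adults kept 3.69% of the Fanci level and 28.8% of the Fancd2 level. Exons of Polg on the opposite strand cover 16.0% of Fanci.

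The Fanconi core complex with its ubiquitin-conjugating enzyme was the least reduced group, with 8 of 9 genes lower, 1 higher, 4 lower beyond 2-fold and a median of −0.64. Fanca, which with FANCG forms 1 module of the complex, was the most reduced, with 1.38, 1.56 and 1.38 CPM in adults and 16.7, 19.8, 16.6 and 21.6 CPM at E14.5 (log2 fold change −3.70, SE 0.148, edgeR adjusted p = 1.0e-09). Its partner Fancg averaged 17.3 ± 0.131 CPM in adults and 24.3 ± 0.669 CPM at E14.5 (SD, n = 3 and 4), a far smaller difference (log2 fold change −0.49, SE 0.0589, edgeR adjusted p = 1.2e-05). Ube2t, the enzyme that hands ubiquitin to the complex, had 0.944, 0.781 and 1.04 CPM in adults and 6.80, 7.75, 7.53 and 7.56 CPM at E14.5 (log2 fold change −3.00, SE 0.139, edgeR adjusted p = 3.6e-09). Fancl, the ligase subunit that UBE2T binds, had 9.20, 8.42 and 9.66 CPM in adults and 12.7, 12.0, 11.3 and 10.6 CPM at E14.5 (log2 fold change −0.36, SE 0.0939, edgeR adjusted p = 0.0042). All adult libraries of both genes were below those of E14.5, but adults kept 12.5% of the Ube2t level and 78.0% of the Fancl level.

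The remaining core genes were intermediate or nearly level. Fancb, which binds FANCL, averaged 3.04 ± 0.186 CPM in adults and 9.33 ± 0.558 CPM at E14.5 (log2 fold change −1.61), and Fancf, an adaptor of the complex, 2.33 ± 0.150 CPM in adults and 5.95 ± 0.576 CPM at E14.5 (log2 fold change −1.35, SD, n = 3 and 4). Fance, the subunit that contacts FANCD2, had 13.4, 12.7 and 12.2 CPM in adults and 19.4, 20.6, 20.2 and 19.7 CPM at E14.5 (log2 fold change −0.64, SE 0.0687, edgeR adjusted p = 4.8e-06). Those 3 genes had no overlap between the ages. Fancm, the translocase that anchors the complex on DNA, averaged 18.1 ± 0.858 CPM in adults and 20.9 ± 1.12 CPM at E14.5 (log2 fold change −0.20, edgeR quasi-likelihood adjusted p = 0.018), and its call was lost without adult replicate 2 (edgeR adjusted p = 0.072) or 3 (edgeR adjusted p = 0.082). Fancc, which binds FANCE and FANCF, had 11.4, 11.6 and 10.5 CPM in adults and 9.74, 8.46, 8.56 and 10.1 CPM at E14.5 (log2 fold change 0.27, SE 0.0946, edgeR adjusted p = 0.019). The ages were close but did not overlap. The Fancc call was lost without adult replicate 1 or 2 or without E14.5 replicate 2 or 3 (edgeR adjusted p = 0.054, 0.066, 0.055 and 0.053), and with total-count scaling its sign turned (−0.14, edgeR adjusted p = 0.19). Exons on the opposite strand cover 18.6% of Fancc. One of the genes there, 2010111I01Rik, had 1195 to 1449 counts in adults and 493 to 624 at E14.5, and its part in the Fancc value was not tested.

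Structure-selective nucleases cut the branched molecules that repair leaves. All 4 genes were lower in adults, 2 of them beyond 2-fold. Eme1, which encodes a partner of MUS81, had 0.157, 0.0434 and 0.0836 CPM in adults and 17.8, 21.9, 17.9 and 24.0 CPM at E14.5. Its adult counts were 4, 1 and 2, beside 800, 801, 681 and 1163 at E14.5, the largest reduction of the 31 (log2 fold change −7.67, SE 0.268, edgeR adjusted p = 3.4e-10). The adult sum corresponds to 0.0967 CPM, with an exact 95% Poisson interval of 0.0389 to 0.199, again for counting error only. Mus81, the catalytic subunit, had 17.8, 17.7 and 17.4 CPM in adults and 30.2, 27.9, 32.7 and 28.6 CPM at E14.5 (log2 fold change −0.76, SE 0.0695, edgeR adjusted p = 1.3e-06). A processed pseudogene, Gm48985, matches Mus81 over 348 bases at 95.7% identity and held 6 to 11 counts in adults and 13 to 27 at E14.5, beside 408 to 453 counts of Mus81 in adults and 1024 to 1384 at E14.5. Slx4, the scaffold that holds several nucleases, had 32.7, 33.6 and 34.0 CPM in adults and 45.9, 48.6, 51.0 and 51.5 CPM at E14.5 (log2 fold change −0.56, SE 0.0561, edgeR adjusted p = 2.8e-06). Neither Mus81 nor Slx4 overlapped between the ages, and adults kept 59.2% of the Mus81 level and 67.9% of the Slx4 level, beside 0.465% of the Eme1 level. Eme2, which is among the other genes listed for these pathways, kept 71.9% of its E14.5 level in adults (log2 fold change −0.48). Gen1, a nuclease that cuts 4-way junctions on its own, averaged 1.45 ± 0.129 CPM in adults and 14.4 ± 1.97 CPM at E14.5 (SD, n = 3 and 4, log2 fold change −3.31).

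Several proteins of this pathway bind each other or act at the same step, and the ratio of 2 such genes was compared within each library, where the scaling between libraries cancels. For 10 pairs, the log2 ratio of counts (0.5 added to each) was compared between ages with an exact two-sided permutation test, whose smallest possible p is 0.029 with 3 and 4 libraries. The ratio changed in 9 of 10 pairs (adjusted p = 0.032 over the 10 pairs, exact permutation test). Each of the 9 stood at the smallest possible p, as did 79.0% of all pairs that can be formed from the 20800 genes tested, so the count itself is not particular to these pairs and the sizes are given below. Eme1 over Mus81 had log2 ratios of −6.66, −8.09 and −7.38 in adults and −0.76, −0.35, −0.87 and −0.25 at E14.5. Turned back from the log2 scale, the mean ratio with 0.5 added to each count was 0.00602 in adults and 0.679 at E14.5. All adult libraries lay far lower (difference −6.82, or −6.46 without adult replicate 2), and with so few adult Eme1 counts the added 0.5 weighs on the ratio. Fanci over Fancd2 had log2 ratios of −3.89, −3.35 and −3.70 in adults and −0.62, −0.79, −0.70 and −0.75 at E14.5, a difference of −2.93. Ube2t over Fancl had −3.26, −3.39 and −3.18 in adults and −0.90, −0.63, −0.59 and −0.49 at E14.5, a difference of −2.63. In those 3 pairs the mean ratio, turned back in the same way, was 0.00602 to 0.103 in adults, against 0.609 to 0.679 at E14.5. Counts are not divided by gene length here, so the change of a ratio is compared and not the level of one gene with another.

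Xrcc2 over Rad51d had log2 ratios of −2.20, −2.09 and −1.65 in adults and 0.28, 0.63, 0.12 and 0.43 at E14.5, so that Rad51d had the larger count in adults and Xrcc2 at E14.5 (difference −2.34). Rad54b over Rad54l turned as well, with 0.82, 0.88 and 0.23 in adults and −1.05, −0.95, −0.99 and −1.06 at E14.5 (difference 1.66), subject to the uncertain Rad54b count. Fance over Fancd2 had 1.006, 0.89 and 0.96 in adults and −0.10, −0.25, −0.05 and −0.37 at E14.5 (difference 1.15). The sign of the log2 ratio thus differed between the ages in these 3 pairs. Rad51b over Rad51c had −3.17, −5.21 and −3.31 in adults and −1.44, −1.24, −1.36 and −1.37 at E14.5 (difference −2.54, or −1.89 without adult replicate 2, which had a single Rad51b count). Bard1 over Brca1 had −0.54, −0.51 and −0.82 in adults and −1.014, −0.91, −0.995 and −0.97 at E14.5 (difference 0.35). The last was one of the 3 smallest shifts, in a pair whose members both kept under 5% of their E14.5 level. Palb2 over Brca2 had −1.62, −2.18 and −1.56 in adults and −1.43, −1.52, −1.20 and −1.30 at E14.5 (difference −0.42, or −0.23 without adult replicate 2). Slx4 over Mus81 had 0.87, 0.92 and 0.96 in adults and 0.60, 0.80, 0.64 and 0.85 at E14.5 (difference 0.20), which did not pass (p = 0.057, exact permutation test, adjusted p = 0.057), although no adult library overlapped those of E14.5.

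**Figure D3:**
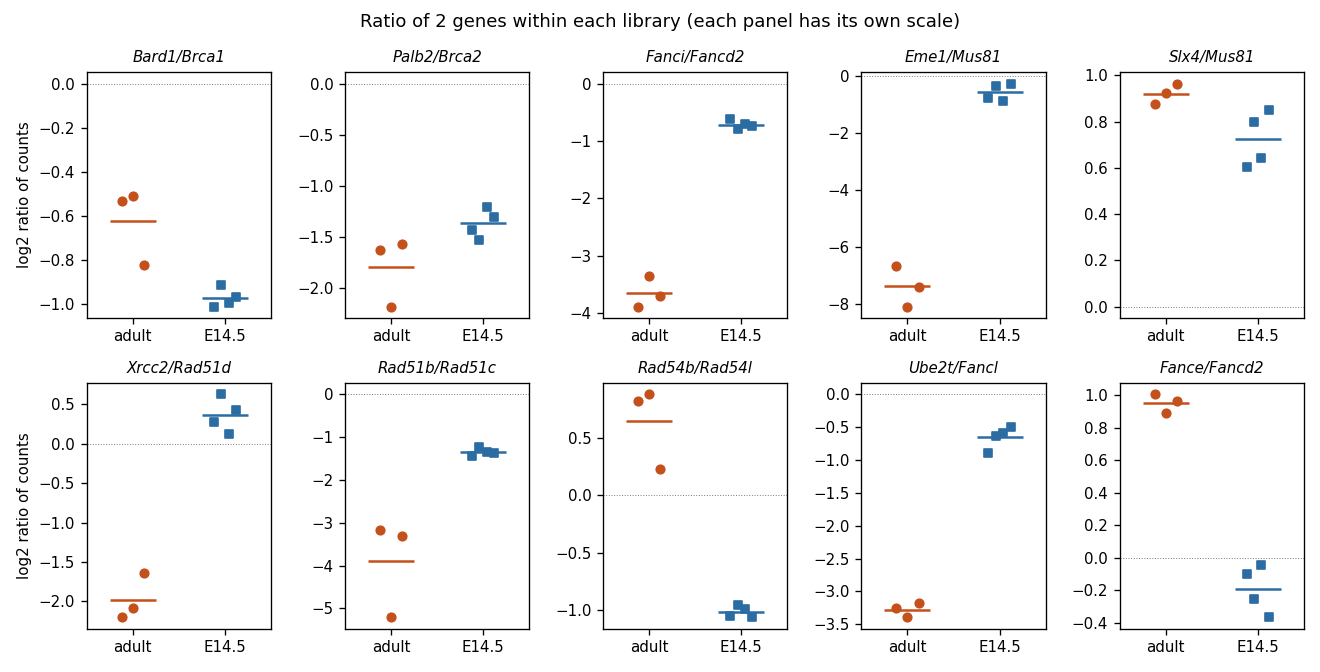
Log2 ratio of the counts of 2 partner genes within each library (0.5 added to each count), for 10 pairs, with adult libraries as circles, E14.5 libraries as squares, lines at group means and a separate vertical scale in each panel. Differences of the group means run from −6.82 (Eme1 over Mus81) to 1.66 (Rad54b over Rad54l), and Slx4 over Mus81 (0.20) did not pass the test.

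Some genes of these pathways start back to back with a neighbour on the other strand, so that the stretch between the starts lies upstream of both. In GENCODE M21, 11 of the 31 genes have a protein-coding neighbour on the opposite strand whose start lies within 1000 bases, and in 2 of them, Eme1 and Fancf, the starts overlap. The log2 ratio of gene to neighbour was compared as for the pairs, and it was lower in adults in 9 of 11 (adjusted p = 0.035 over the 11 pairs, exact two-sided permutation test, smallest possible p 0.029). Of the 1038 such pairs among all protein-coding genes tested, 79.4% reached that p in either direction, so a changed ratio was common. These pairs were chosen after the data were seen. Eme1 and Mrpl27, which encodes a mitochondrial ribosomal protein, show the widest gap: Mrpl27 had 18.8, 16.7 and 17.3 CPM in adults and 22.1, 19.3, 20.2 and 20.4 CPM at E14.5, and the Eme1 to Mrpl27 log2 ratio differed by −7.35. In the window printed above, the Mrpl27 start lies 24 bases upstream of the RefSeq start of Eme1. Their M21 exons overlap, and exons of Mrpl27 and Lrrc59 on the opposite strand cover 10.7% of Eme1.

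Brca1 and Nbr1, which encodes an autophagy receptor, start 194 bases apart within the printed Brca1 window. Nbr1 had 208, 213 and 206 CPM in adults and 231, 251, 246 and 259 CPM at E14.5, so adults kept 84.8% of Nbr1 but 3.24% of Brca1 (difference in log2 ratio −4.70). Rad54l and Pomgnt1, which encodes an enzyme of glycosylation, start 150 bases apart, and Pomgnt1 had 73.6, 70.5 and 70.3 CPM in adults and 59.3, 56.2, 57.6 and 55.5 CPM at E14.5 (difference −5.10). With TMM scaling, Pomgnt1 was above its E14.5 range in every adult library while Rad54l was below its own. In deposited RPKM, which TMM factors do not adjust, Pomgnt1 was not higher in adults, at 11.1 ± 0.279 in adults and 11.8 ± 0.474 at E14.5. Rad54l stayed far lower, at 0.124 ± 0.0213 RPKM in adults and 4.58 ± 0.516 RPKM at E14.5 (SD, n = 3 and 4). Palb2 differed from Dctn5 (difference −2.77), a dynactin subunit gene with 58.3 ± 1.44 CPM in adults and 55.4 ± 3.29 CPM at E14.5 (SD, n = 3 and 4). Fancd2 differed from Emc3 (−2.36), which averaged 64.2 ± 3.28 CPM in adults and 43.1 ± 1.22 CPM at E14.5. Gen1 differed from Smc6 (−2.60), a gene of the SMC5/6 complex that itself acts in recombination and averaged 62.9 ± 3.46 CPM in adults and 102 ± 8.19 CPM at E14.5. The ratios of Rad51b to Zfyve26 (−4.15, or −3.47 without adult replicate 2), Xrcc3 to Zfyve21 (−2.17) and Fancb to Mospd2 (−1.43) were also lower in adults.

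Fancf and Gas2 did not pass (difference −0.32, p = 0.086 and adjusted p = 0.086, exact permutation test), and their libraries overlapped. Gas2 had 11.4, 12.8 and 10.9 CPM in adults and 21.4, 25.7, 23.3 and 24.2 CPM at E14.5, lower in every adult library as Fancf was. Exons of Gas2 cover 15.0% of Fancf. Rad51c and Tex14 did not pass either (difference −1.82, p = 0.057, adjusted p = 0.063, exact permutation test). Tex14 had 6 to 13 counts in adults and 8 to 29 at E14.5, too few to fix the ratio well. Neighbours that are not protein-coding were left out of these pairs. Among them, Brip1os starts 177 bases upstream of Brip1 and was also lower in adults, but by less. Adults kept 23.2% of the E14.5 level of Brip1os (log2 fold change −2.11), beside 2.01% of that of Brip1 (−5.58). Gm47870 beside Fancm and 4930540M05Rik beside Rad52 were not among the genes tested.

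**Figure D4:**
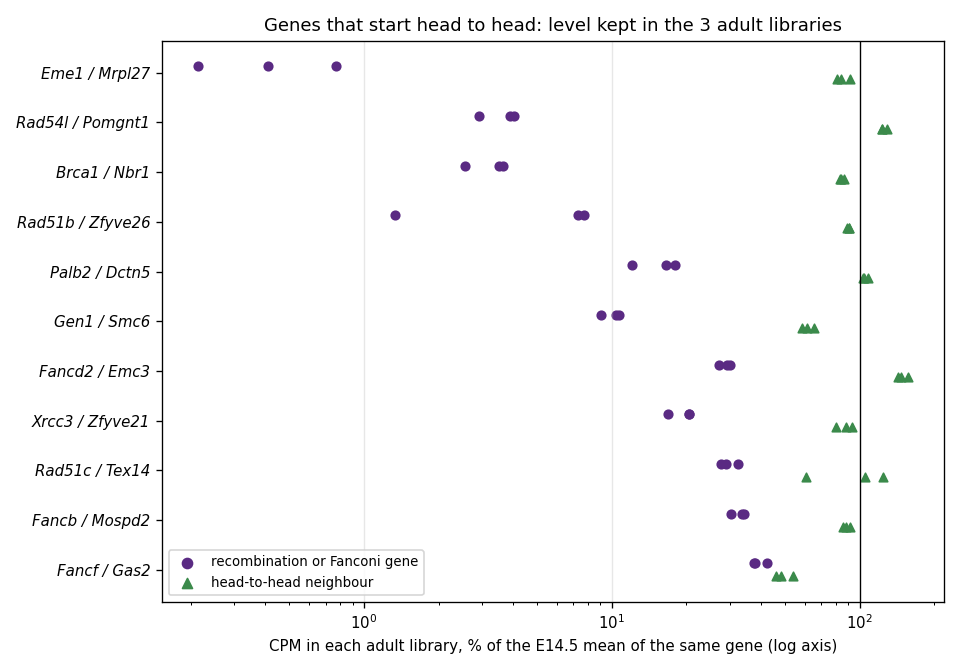
CPM in each of the 3 adult libraries as a percentage of the E14.5 mean of the same gene (log axis), for 11 genes (circles) and their head-to-head neighbours (triangles). The mean adult percentage is 0.465% for Eme1 and 85.8% for Mrpl27, and 39.2% for Fancf and 49.4% for Gas2.

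Levels of different genes were compared as deposited RPKM, which divides by gene length and by the library total, without TMM factors. Those factors were 0.844 to 0.854 in adult libraries and 1.12 to 1.15 at E14.5. Adult levels therefore stand lower against E14.5 in RPKM than in CPM. In adults the 31 genes lay between 0.0216 RPKM (Brip1) and 4.20 RPKM (Mus81), a 194-fold range. At E14.5 they lay between 0.975 RPKM (Rad51b) and 9.97 RPKM (Xrcc3), a 10.2-fold range. The ranking changed between the ages, with a Spearman correlation of 0.35 across the 31 genes, which share libraries and gene lengths and are not independent. Xrcc3 ranked 9th in adults and 1st at E14.5, with 1.45 ± 0.152 RPKM in adults and 9.97 ± 0.965 RPKM at E14.5 (SD, n = 3 and 4). Eme1 ranked 30th in adults and 3rd at E14.5, with 0.0291 ± 0.0177 RPKM in adults and 8.33 ± 1.20 RPKM at E14.5. Rad51d ranked 2nd in adults and 17th at E14.5, with 4.19 ± 0.419 RPKM in adults and 3.38 ± 0.162 RPKM at E14.5. In adults the 7 highest genes (Mus81, Rad51d, Fancg, Slx4, Fance, Rad52 and Fancl) held 69.2% of the summed RPKM of the 31, and the same 7 held 33.5% at E14.5. The top 2, Mus81 and Rad51d, were within their spread of each other, and so were Slx4 and Fancg at E14.5. Summed by role, the Fanconi core genes had 14.5 RPKM in adults and 33.4 RPKM at E14.5. The BRCA1-PALB2-BRCA2 axis had 0.817 RPKM in adults and 13.3 RPKM at E14.5, and resection and unwinding 1.07 RPKM in adults and 15.3 RPKM at E14.5.

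**Figure D5:**
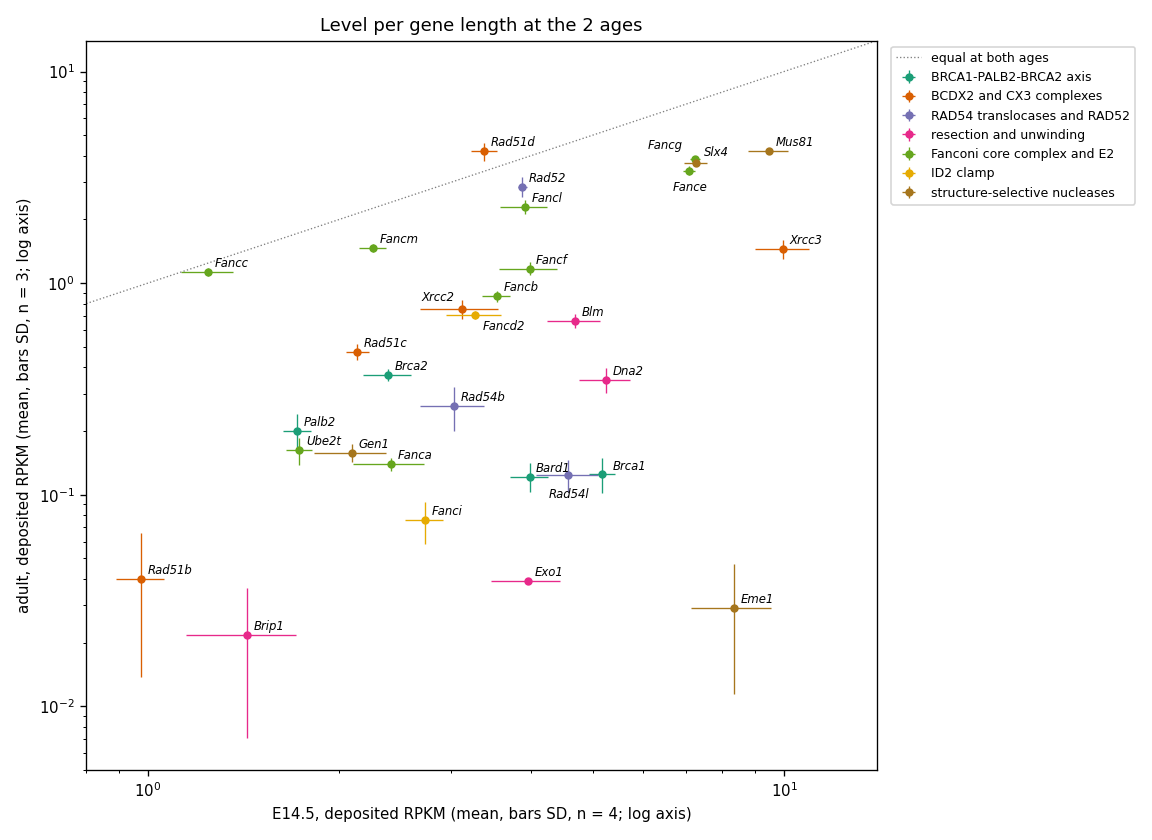
Mean deposited RPKM of each gene in adults (vertical, SD over 3 libraries) against E14.5 (horizontal, SD over 4 libraries), both on log axes, with a dotted line at equal levels. Levels span 194-fold in adults and 10.2-fold at E14.5, and only Rad51d lies above the line. RPKM is not adjusted by TMM factors, and Fancc, called higher in adults with them, lies below the line (1.13 RPKM in adults and 1.24 at E14.5).

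The 48 other genes listed for these pathways were read from the same fit, and all 48 were tested. In adults 35 were lower, 7 were higher and 6 did not pass, with a median log2 fold change of −0.76, beside 44.7% lower and 41.7% higher among all genes tested and their median of −0.08. With total-count scaling 40 were lower and 2 higher. Rmi2 and Fignl1 had the 2 largest fitted reductions. Rmi2, which stabilises the BLM complex, averaged 0.0546 ± 0.0208 CPM in adults and 5.95 ± 0.687 CPM at E14.5 (log2 fold change −6.66, edgeR quasi-likelihood adjusted p = 9.6e-10). Its adult counts were 2, 1 and 1, so it met the low-count filter in no adult library and entered the test through its E14.5 counts. The adult sum corresponds to 0.0553 CPM, with an exact 95% Poisson interval of 0.0151 to 0.142 for counting error only. Fignl1, which encodes an AAA ATPase, averaged 0.816 ± 0.199 CPM in adults and 35.7 ± 3.48 CPM at E14.5 (log2 fold change −5.45, edgeR adjusted p = 4.9e-11). The 3 largest rises were in Zswim7, Babam2 and Wdr48. Zswim7, a gene of the Shu complex, had 6.96, 7.63 and 6.82 CPM in adults and 3.36, 2.78, 2.52 and 2.73 CPM at E14.5 (log2 fold change 1.32, SE 0.123, edgeR adjusted p = 1.4e-06). Babam2, a subunit of the BRCA1-A complex, averaged 34.9 ± 0.666 CPM in adults and 21.2 ± 1.37 CPM at E14.5 (log2 fold change 0.72, edgeR adjusted p = 9.5e-07). Wdr48, which activates the deubiquitinase that clears FANCD2, averaged 109.6 ± 2.40 CPM in adults and 77.8 ± 2.05 CPM at E14.5 (log2 fold change 0.49, edgeR adjusted p = 8.3e-07), and with total-count scaling its value was 0.08 (edgeR adjusted p = 0.085).

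Within E14.5 many of the genes were high or low in the same libraries. Replicates 2 and 4 were both above replicates 1 and 3 in 20 of the 31 genes, beside 22.1% of all genes tested, and both below them in 1, beside 21.2%. The split was not planned before the values were seen, and replicates 2 and 4 were each the highest for 13 of the 31 genes. These counts are therefore a description, and the shares of all genes do not measure how unusual they are. The summed dividing-cell markers were 1652 and 1670 CPM in replicates 2 and 4, and 1419 and 1405 CPM in replicates 1 and 3. Replicates 2 and 4 differ in sex, and replicate 1 alone had an earlier plug date. The part of sex, date and the marker level in this grouping was not tested. The coefficient of variation at E14.5 was 2.44% for Rad52 and 20.3% for Brip1 at the extremes, with a median of 8.84% over the 31 genes, beside 8.93% in adults.

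Sex was compared at E14.5, where 2 male libraries stood against 2 female libraries. None of the 31 genes passed in edgeR's quasi-likelihood test, none had an unadjusted p under 0.05, and 10 of 20134 genes (0.0497%) passed over the genome. The median log2 fold change, male over female, was −0.01 over the 31 genes. Both males were above both females for Fancc alone (log2 fold change 0.22, edgeR quasi-likelihood adjusted p = 1) and below both for 4 genes, beside 12.8% and 12.6% of all genes tested, so these counts are no result about the 31. The only adult library without a floxed Atr allele, adult replicate 2, was the lowest of the 3 for 11 of the 31 genes and the highest for 7. With 1 library of that genotype there is no test.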

How the data were processed

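Total RNA of cortical tissue was sequenced from TruSeq RNA v2 libraries at E14.5, a kit that does not mark strand, and from TruSeq stranded mRNA libraries in adults, per the labels' protocols. Per the submitters' processing notes, the genome build was GRCm38 and the tools were TopHat2 2.1.0, featureCounts 1.5.0 and bcl2fastq 1.8.4. No source used here gives the annotation release or the strand setting. For each gene the authors deposited RPKM and RPM values beside whole read counts. The deposited RPM equals counts over the library total. The deposited RPKM uses 1 length per gene and was used for levels between genes, and RPM was not tested. Counts of replicates differed beyond sampling noise (chi-square per degree of freedom 4.15 to 13.3).

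The count model was edgeR 4.0.16 (R 4.3.3): quasi-likelihood F test with age as its single term, filterByExpr at a minimum count of 10 and total of 15, TMM factors, Benjamini-Hochberg adjustment over 20800 genes, threshold 0.05, and glmTreat beyond 2-fold. Sex was tested within E14.5 over 20134 genes. SEs are the log2 fold change over the square root of F. Ratios were compared with an exact permutation test. All tests were checked on simulated data. Positions and overlaps come from GENCODE M21, on GRCm38, which holds 53620 of the identifiers, copies from BLAST 2.17.0 (at least 95% identity), and promoter windows from RefSeq, where 26 of 31 genes matched by symbol. Alternatives were other scalings and filters, DESeq2 1.42.0, limma-voom and limma-trend (limma 3.58.1; 0.5 or 0.1 added to RPKM before log2), a replicate block, a sex covariate, females only, genes without opposite-strand exon overlap, and leaving out each library. The members, lists and pairs were chosen with earlier results of these data known. Genes given in full were, per role, those with the largest and smallest fall, those that rose or did not pass, and those of the pairs; of the partners, the 3 largest falls and rises, of which 1 gene is not reported here. Protein sequences were not used here.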

Additional observations from a re-analysis of the deposited data

How the results depend on the processing

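Of the 31 genes, 28 kept their direction and their side of the threshold in every setting tried (up to 20 each) other than the test beyond 2-fold; the exceptions were Fancc, Fancm and Rad52. Among the 16 genes without opposite-strand exon overlap, 14 were lower and 1 was higher in adults. The number higher was also 1 with upper-quartile scaling, total-count scaling, no low-count filter and both limma-trend fits, 0 beyond 2-fold, and 1 to 2 with a library left out. Over all genes, 4716 were lower and 5108 higher beyond 2-fold. Of the partners, 21 were lower and 1 higher beyond 2-fold, 20 of 31 without opposite-strand overlap were lower, and 2 were higher with total-count scaling and with both limma-trend fits. Fancc turned to −0.14 with total-count scaling and to −0.10 and −0.12 with limma-trend (0.5 and 0.1 added), and its call was lost with upper-quartile scaling (0.15). Rad52 turned to 0.0265 with RLE and 0.0265 with DESeq2, 0.0034 where a mean of 1 CPM was required and 0.06 without overlapping genes. It ran from −0.0726 to 0.0671 with a library left out, positive without adult replicate 3, and with limma-trend it was called lower (−0.39 and −0.43). Fancm was not called with RLE (edgeR adjusted p = 0.063), DESeq2 (adjusted p = 0.096) or sex as a covariate (edgeR adjusted p = 0.056). The cause was not tested. The median over all genes moved from −0.08 with TMM to −0.49 with total counts, and 48.3% of all calls were higher in adults with TMM and 37.1% with total counts; the member median was then −2.78. Replicate numbers did not pair the libraries (correlations of same-numbered libraries 0.045, −0.031 and −0.0075 over 11329 genes). The replicate block gave 9134 lower and 8535 higher genes, and of the 31 it lost the Fancm call (edgeR adjusted p = 0.071). With 0.1 or 1 added in place of 0.5, all ratios kept their calls; with a library left out the exact test cannot pass, and all kept their direction. Adult counts of 1 to 7 limit the precision for Eme1, Brip1 and Rad51b. The kits of the adult and E14.5 libraries differ in strand, and the part of opposite-strand reads in the values of 15 genes was not tested beyond leaving those genes out.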
